A study of Mus musculus with 150 samples.

Results

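Adam26b, Adam26a and Adam34 are 3 genes of the ADAM family that lie within 333 kb to the right of a deletion at Zfp42 on mouse chromosome 8. They were chosen by their position, as the genes named Adam26b, Adam26a and Adam34 in a table of replication timing, and are 3 of the 2376 annotated chromosome 8 genes with a score. Zfp42 encodes the zinc finger protein Rex1, a marker of pluripotent cells, and the deletion is named after it. The assay was Repli-seq on mouse embryonic stem cells: cells took up BrdU for 2 h, the early and the late part of S phase were sorted apart by DNA content, and BrdU-containing DNA from either part was sequenced. Of the 150 samples of the series, 12 belong to chromosome 8, as early and late fractions of 6 clones of cas/129 hybrid cells grown in DMEM with 2i plus LIF.

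The 6 clones carry CRISPR deletions of 3 kinds, with 2 clones each. Rex1.del clones (D1 and E3) lack chr8:43302260-43332339 (mm10), an interval of 30080 bp that holds the start of Zfp42. Trim.del clones (D9 and E9) lack chr8:43176771-43181949, an interval of 5179 bp that covers the right end of Triml1 and the start of Triml2, which encode tripartite-motif-like proteins. RexTrim.del clones (D3 and D8) lack both intervals. No unedited chromosome 8 profile was analysed here, so Trim.del, in which the Rex1 interval is intact, served as the comparison, and every genotype therefore carries an edit near these genes. Each clone gave a separate profile for each parental allele, named svim (from the 129 parent) and CAST. Which allele was edited is not stated in the labels. The table is blank over all 6 positions of the Rex1 interval on svim and on none of them on CAST in the 4 clones that lack it. The 1 position in the Trim interval is blank on svim in the 4 clones that lack that interval, and in the RexTrim.del clone D8 it is blank on CAST as well.

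ADAM proteins (a disintegrin and metalloprotease) are membrane-anchored proteins that act in cell adhesion and in shedding of surface proteins. A large group of them is made in the testis, where several take part in sperm maturation and in contact between gametes, and Adam26a, Adam26b and Adam34 belong to that group. Replication timing is set over long chromosome segments: segments with active genes tend to replicate early in S phase and silent ones late. Only timing was measured, and no RNA level is available here for these genes.

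Adam26b (gene ID 382007) spans chr8:43519864-43528137 and starts 188 kb from the right end of the Rex1 deletion. Adam26a (gene ID 13525) spans chr8:43568273-43576707 and starts at 236 kb. Adam34 (gene ID 252866) spans chr8:43650309-43665560 and starts at 318 kb. The genes are short, of 8274, 8435 and 15252 bp, and are separated by gaps of 40 kb and 74 kb. At 1 position every 5 kb, their scores are means over 2, 2 and 3 positions. Adam34 lies within the longer annotated span of Adam34l (chr8:43624889-43703424), so the scores of those genes share positions.

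The 250 bases upstream of a gene's start are shown for 2 members and for Zfp42, because the members moved together while their starts lie outside the deleted interval and that of Zfp42 lies inside it. The sequences are RefSeq's for GRCm38.p6 (the mm10 build), all on the minus strand and written 5′ to 3′ along the gene, with CG dinucleotides in capitals. The table held 2 of the 3 members. The windows are chr8:43528138-43528387 for Adam26b, chr8:43665561-43665810 for Adam34 and chr8:43307010-43307259 for Zfp42.
Adam26b: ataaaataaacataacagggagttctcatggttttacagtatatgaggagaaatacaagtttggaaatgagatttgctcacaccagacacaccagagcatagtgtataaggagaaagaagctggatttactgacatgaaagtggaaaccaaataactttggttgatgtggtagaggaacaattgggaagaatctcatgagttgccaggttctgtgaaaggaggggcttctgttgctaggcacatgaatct
Adam34: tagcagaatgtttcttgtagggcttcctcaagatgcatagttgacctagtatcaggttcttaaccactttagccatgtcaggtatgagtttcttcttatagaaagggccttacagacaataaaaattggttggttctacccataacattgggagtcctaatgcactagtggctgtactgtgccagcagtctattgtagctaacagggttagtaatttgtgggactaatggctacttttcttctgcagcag
Zfp42: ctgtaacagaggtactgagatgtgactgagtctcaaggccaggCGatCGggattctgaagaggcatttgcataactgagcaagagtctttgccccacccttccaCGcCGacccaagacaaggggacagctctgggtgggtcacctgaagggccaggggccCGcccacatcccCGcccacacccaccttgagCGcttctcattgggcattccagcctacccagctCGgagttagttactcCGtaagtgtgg
The Adam26b and Adam34 windows hold 0 CG dinucleotides, as do 7.9% of the 32851 promoter windows of the same length in the table. Their GC content was 39.6% and 41.6%, against a median of 52.4% over all windows. The Zfp42 window holds 9 CG dinucleotides, against a median of 6, with a GC content of 58.4%. The octamer ATTTGCAT, searched on both strands, occurs in the Zfp42 window, in neither ADAM window and in 1.6% of all windows. These are matches of letters and carry no statement on binding.

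The score is the authors' combination of the early and late fractions, on a scale whose log base is unknown, so differences are in score units rather than folds. Its direction was checked on control genes. Calr, Junb, Farsa, Prdx2 and Dnase2a, housekeeping-type genes of a gene-dense segment, scored between 1.08 and 2.68, and Csmd1 and Sgcz, large genes of the nervous system and muscle, scored between -3.36 and -1.88. All 5 scored above both large genes in 12 of 12 columns, so a higher score was taken as earlier replication. The large gene Dlc1, listed as late, scored between 0.98 and 2.09 and did not behave as such. Columns held between 25223 and 25240 values, all with an interquartile range of 4.60, with medians between -1.24 and 0.03. Read depth is unknown, and the precision rests on 2 clones per genotype. Nothing in the labels says how independent the clones of a genotype are beyond their names. The limma p-values therefore set each difference against the spread between these clones only, moderated over all genes.

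On the svim allele all 3 genes replicated later wherever the Rex1 interval was missing, and on the CAST allele of the same clones no shift passed the test. With the interval intact the genes scored near or above 0 on svim, a middle position in the order of chromosome 8, and without it they scored about as low as the late control genes Csmd1 and Sgcz.

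Adam26b, the member nearest to the deletion, scored 0.86 and 1.64 on svim in the Trim.del clones D9 and E9. It scored -2.50 and -1.90 in the Rex1.del clones D1 and E3, and -2.99 and -3.14 in the RexTrim.del clones D3 and D8. The 4 clones without the Rex1 interval all lay below both Trim.del clones, with no overlap. How many of all genes separate in this way was not counted, here or for the other members. On CAST the scores were 0.21 and 0.93 in Trim.del, 0.31 and 1.62 in Rex1.del, and 0.62 and 0.00 in RexTrim.del, and the groups overlapped. In rank terms, Adam26b on svim scored above 58.7% to 66.6% of chromosome 8 positions in Trim.del and above 13.2% to 32.7% in the other 4 clones.

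Adam26a, the middle gene, scored 0.46 and 1.61 on svim in Trim.del. It scored -2.23 and -2.08 in Rex1.del and -2.98 and -3.03 in RexTrim.del, again without overlap with Trim.del. On CAST it scored -0.38 and 0.50 in Trim.del, -0.30 and 0.98 in Rex1.del, and 0.30 and -0.34 in RexTrim.del. These CAST values interleave, and the largest gap between 2 clones of one genotype was the 1.28 between D1 and E3.

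Adam34, the member farthest from the deletion, was the latest of the 3 already in Trim.del, where it scored -0.24 and 0.76 on svim. It scored -2.24 and -2.42 in Rex1.del and -2.95 and -2.90 in RexTrim.del, all below Trim.del. On CAST it scored -0.83 and 0.07 in Trim.del, -1.16 and -0.33 in Rex1.del, and -0.38 and -0.70 in RexTrim.del, and the groups overlapped. The svim values of RexTrim.del clones lay within 0.15 of each other at every member, and those of Trim.del clones differed by 0.78 to 1.15.

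**Figure D1:**
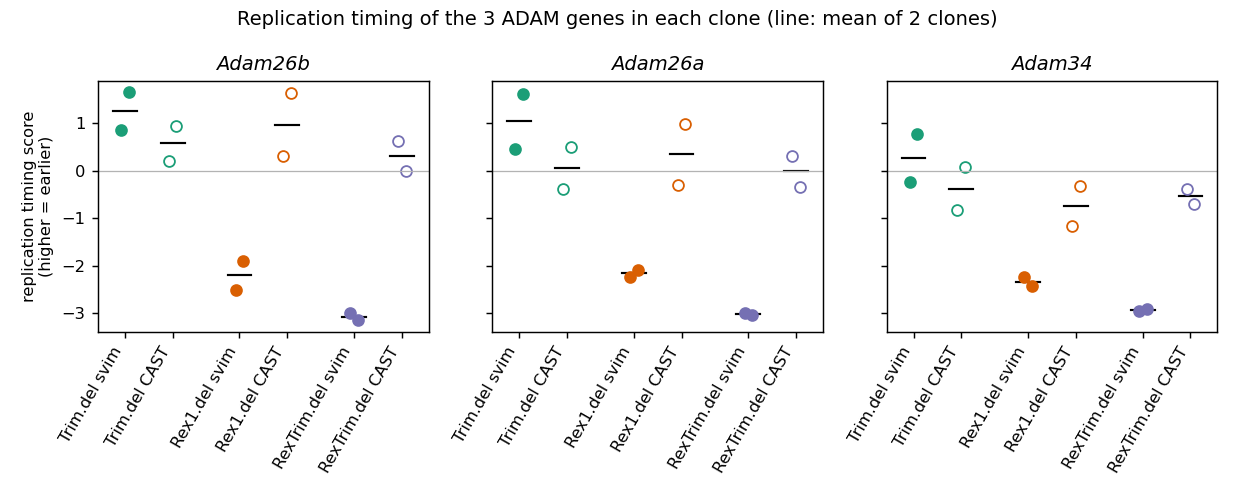
Replication timing score (vertical axis, higher is earlier) of Adam26b, Adam26a and Adam34 in each of 6 clones, with filled points for svim, open points for CAST and a line at the mean of 2 clones. The svim points of Rex1.del and RexTrim.del lie between -3.14 and -1.90, below every other point, while the CAST points of all genotypes overlap.

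In order of their means, Adam26b stood at -3.07 ± 0.11 (SD, n = 2) on svim in RexTrim.del, -2.20 ± 0.43 on svim in Rex1.del, 0.31 ± 0.44 on CAST in RexTrim.del, 0.57 ± 0.51 on CAST in Trim.del, 0.96 ± 0.92 on CAST in Rex1.del and 1.25 ± 0.56 on svim in Trim.del. The step between the 2 svim values at the bottom and the CAST values was larger than any SD, and neighbouring values among the 4 upper ones differ by less than the gaps between clones. Adam26a and Adam34 had the same 2 values at the bottom: Adam26a at -3.0 ± 0.03 and -2.15 ± 0.11, and Adam34 at -2.92 ± 0.04 and -2.33 ± 0.13. Over 12 columns the members followed each other, with Pearson correlations of 0.991 between Adam26b and Adam26a, 0.984 between Adam26a and Adam34, and 0.964 between Adam26b and Adam34. The columns of a clone share their libraries, and neighbouring positions share the authors' processing.

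The question for the svim allele was whether loss of the Rex1 interval changes the timing of genes to its right. Rex1.del and Trim.del differ at both deleted intervals, since Rex1.del keeps the Trim interval. By their labels, RexTrim.del and Trim.del differ at the Rex1 interval alone. Against Trim.del, the svim score of Adam26b fell by 3.45 in Rex1.del (SE 0.33, adjusted p = 0.0074, limma with Benjamini-Hochberg adjustment over 2376 genes). Adam26a changed by -3.19 (SE 0.36) and Adam34 by -2.59 (SE 0.34), both at an adjusted p of 0.0074. In this comparison 3.28% of all genes were called lower, and the median gene differed by 0.22. Calls over all genes split into 78 lower and 19 higher, and into 80 and 101 after quantile normalization and 81 and 584 after rescaling, so the number called higher rests on the scaling and the number called lower does not. Adam26b and Adam26a had the 2 lowest differences of the 2376 genes, and Adam34 ranked 5 from the bottom. Without the Trim.del clone E9 the same differences were -3.06, -2.61 and -2.09 and none passed, with adjusted p values of 0.0589, 0.0589 and 0.0696. The calls held without D1, E3 or D9, where the 1 clone left in a genotype is assumed to vary like the clones of the other genotypes. They also held when only Rex1.del and Trim.del were fitted (for Adam26b, an adjusted p of 4.56e-04). Leaving out D3 or D8 gives that same fit, since a genotype with 1 clone adds nothing to the estimate of the spread.

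In RexTrim.del the svim differences from Trim.del were larger: -4.32 for Adam26b (SE 0.33, adjusted p = 2.26e-04), -4.04 for Adam26a (SE 0.36, adjusted p = 6.56e-04) and -3.18 for Adam34 (SE 0.34, adjusted p = 0.0015). In this comparison 0.589% of genes, or 14, were called lower and 0 higher, with 135 genes at an unadjusted p under 0.05. The 14 called genes form 1 stretch from Triml1 to Gm6303 that holds the deletions and all 3 members. The same 14 genes were the only called genes within 1 Mb of the deletions in Rex1.del. Both comparisons share the 2 Trim.del clones.

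The further loss of the Trim interval had no called effect on the members. RexTrim.del minus Rex1.del was -0.87 for Adam26b (SE 0.33, adjusted p = 0.0969), -0.85 for Adam26a (SE 0.36, adjusted p = 0.1192) and -0.59 for Adam34 (SE 0.34, adjusted p = 0.2126), where 3.11% of genes were called lower (74, with 85 higher) and the median gene differed by -0.37. All 3 members passed when columns were rescaled to a common median and interquartile range over positions more than 2 Mb from the deletions, at -1.64, -1.62 and -1.35, a scaling that moved the median gene to -1.09 and called 1620 genes lower and 61 higher. After quantile normalization 85 were lower and 53 higher.

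The genes at the deletions had larger svim differences than the ADAM genes in that comparison. Zfp42, whose remaining part next to the Rex1 deletion is scored from 1 position, had a svim mean of 1.83 in Trim.del, -0.66 in Rex1.del and -2.80 in RexTrim.del. Its RexTrim.del minus Rex1.del difference was -2.14 (SE 0.29, adjusted p = 0.0220). In the main fit 3 of 3 genes at the deletions (Zfp42, Triml1 and Triml2) were called lower, against 0 of 3 ADAM members and 3.11% of all genes. The members passed after rescaling, as given above. Per clone, Zfp42 minus Adam26b on svim was 2.11 and 0.97 in Rex1.del, 0.37 and 0.16 in RexTrim.del, and 1.15 and 0.01 in Trim.del. On CAST it was 2.35 and 0.71 in Rex1.del, 0.98 and 1.06 in RexTrim.del, and 0.98 and 1.21 in Trim.del. In the Rex1.del clones Adam26b was thus later than Zfp42 at the deletion's edge on both alleles. On svim these genes lay close together in the RexTrim.del clones and in the Trim.del clone E9. This difference between genes was not tested.

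On CAST no member was called in any comparison. Rex1.del minus Trim.del was 0.39 for Adam26b (SE 0.50), 0.28 for Adam26a (SE 0.51) and -0.37 for Adam34 (SE 0.42). RexTrim.del minus Trim.del was -0.26, -0.08 and -0.17 with the same errors, and RexTrim.del minus Rex1.del was -0.65, -0.36 and 0.21. With limma, 0 of 2376 genes were called on CAST in any of these comparisons, with 484, 56 and 664 at an unadjusted p under 0.05. The CAST differences were smaller than their errors, except the -0.65 of Adam26b in RexTrim.del minus Rex1.del (SE 0.50). The median gene differed by -0.43 there. After rescaling the difference of Adam26b was -1.39 (adjusted p = 0.0403, limma). That scaling moved the median gene to -1.17 and called 1169 genes lower and 10 higher on CAST. The signs of most CAST differences turned when single clones were left out.

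Taking svim minus CAST within each clone sets the alleles of the same nuclei against each other. Adam26b had -2.81 and -3.51 in the Rex1.del clones D1 and E3, -3.61 and -3.15 in the RexTrim.del clones D3 and D8, and 0.65 and 0.71 in the Trim.del clones D9 and E9. Adam26a had -1.93 and -3.06, -3.28 and -2.68, and 0.84 and 1.11 in the same order of clones. Adam34 had -1.08 and -2.09, -2.56 and -2.20, and 0.58 and 0.68. In 4 of 4 clones without the Rex1 interval svim was the later allele at every member, and in 2 of 2 Trim.del clones it was the earlier one. The share of all genes with this split of signs was not counted. D1 had the smallest allele difference of the 4 at each member.

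Within a genotype, the allele difference of Adam26b was -3.16 in Rex1.del (SE 0.23, adjusted p = 0.0012) and -3.38 in RexTrim.del (SE 0.23, adjusted p = 0.0029). For Adam26a it was -2.49 (SE 0.30, adjusted p = 0.0035) and -2.98 (SE 0.30, adjusted p = 0.0049). For Adam34 it was -1.58 (SE 0.26, adjusted p = 0.0100) and -2.38 (SE 0.26, adjusted p = 0.0049). All 3 members were called lower on svim in both genotypes, where 6.06% and 4.29% of all genes were. In Trim.del the differences of 0.68, 0.97 and 0.63 did not pass, with adjusted p values of 0.1249, 0.0931 and 0.2185, and 6.94% of genes were called higher there. The RexTrim.del calls of all 3 genes were lost without D3 (adjusted p = 0.1264) or D8 (adjusted p = 0.0791). The Rex1.del call of Adam34 was lost without D1 (adjusted p = 0.0529) or E3 (adjusted p = 0.1364), that of Adam26a without E3 (adjusted p = 0.0567), and that of Adam26b under neither.

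The change of svim minus CAST between genotypes, which tests whether the effect differs between the alleles, passed for 1 member in Rex1.del and for 3 in RexTrim.del. For Rex1.del minus Trim.del it was -3.84 for Adam26b (SE 0.32, adjusted p = 0.0163), -3.46 for Adam26a (SE 0.42, adjusted p = 0.0825) and -2.22 for Adam34 (SE 0.37, adjusted p = 0.1627). Adam26b was the only one of 2376 genes called, or 0.0421%. For RexTrim.del minus Trim.del it was -4.06 for Adam26b (adjusted p = 0.0113), -3.95 for Adam26a (adjusted p = 0.0247) and -3.01 for Adam34 (adjusted p = 0.0298), with 0.295% of genes called lower. RexTrim.del minus Rex1.del gave -0.22, -0.49 and -0.80, none called, with 150 genes at an unadjusted p under 0.05 and 0 called by limma. The call of Adam26b in Rex1.del was lost without D1, at -4.19 (adjusted p = 0.0861), and without E3, at -3.49 (adjusted p = 0.2269). It was also lost when only Rex1.del and Trim.del were fitted, which leaving out D3 or D8 amounts to, with the difference still at -3.84 (SE 0.33, adjusted p = 0.1014). The calls in RexTrim.del were lost without D3, at -3.83, -3.65 and -2.83 (adjusted p = 0.3007, 0.5073 and 0.5130), and without D8, at -4.29, -4.25 and -3.20 (adjusted p = 0.1646, 0.3100 and 0.3220). Under quantile normalization Adam26a and Adam34 passed in Rex1.del (adjusted p = 0.0404 and 0.0494) and missed the threshold in RexTrim.del (both 0.0613).

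Over clones, an exact two-sided permutation test set the 4 clones without the Rex1 interval against the 2 Trim.del clones. The differences of svim minus CAST were -3.95, -3.71 and -2.62 for Adam26b, Adam26a and Adam34, and those of svim were -3.89, -3.61 and -2.88. Each gave an exact permutation p of 0.1333, the smallest this design allows, and 0.2 after Benjamini-Hochberg adjustment over 9 tests. The CAST differences of 0.07, 0.10 and -0.27 gave exact permutation p values of 1.0, 0.9333 and 0.6667.

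The order of the 3 genes among themselves also differed between alleles. From Adam26b to Adam34 the CAST score dropped by 0.70 in D8 to 1.95 in E3, and was lower at Adam34 in 6 of 6 clones. On svim it dropped by 1.10 and 0.89 in the Trim.del clones D9 and E9. On svim without the Rex1 interval Adam34 minus Adam26b was 0.26 in D1, -0.52 in E3, 0.04 in D3 and 0.25 in D8. The svim allele thus had a slope across the cluster with the interval. Without it the svim score was late, and nearly flat in D1, D3 and D8, with a smaller drop left in E3.

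Distance from the deletion was examined in 50 kb windows laid outward from its ends, with 2522 windows tested along the chromosome. In the Trim.del clones the svim score was highest beside the Rex1 interval, at 1.80 in the first window to the right, and was 1.31 in the window of Adam26b (150 to 200 kb), 1.11 in that of Adam26a (200 to 250 kb), 0.28 in that of Adam34 (300 to 350 kb) and -1.20 at 450 to 500 kb. The CAST score of these clones went the same way, from 1.35 beside the interval to 0.73, 0.21 and -0.37 at the members. In RexTrim.del the svim score lay between -3.12 and -2.85 from the deletion to 550 kb. In Rex1.del it was -0.94 beside the deletion and lower in each window to 200 kb, where it reached -2.17.

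**Figure D2:**
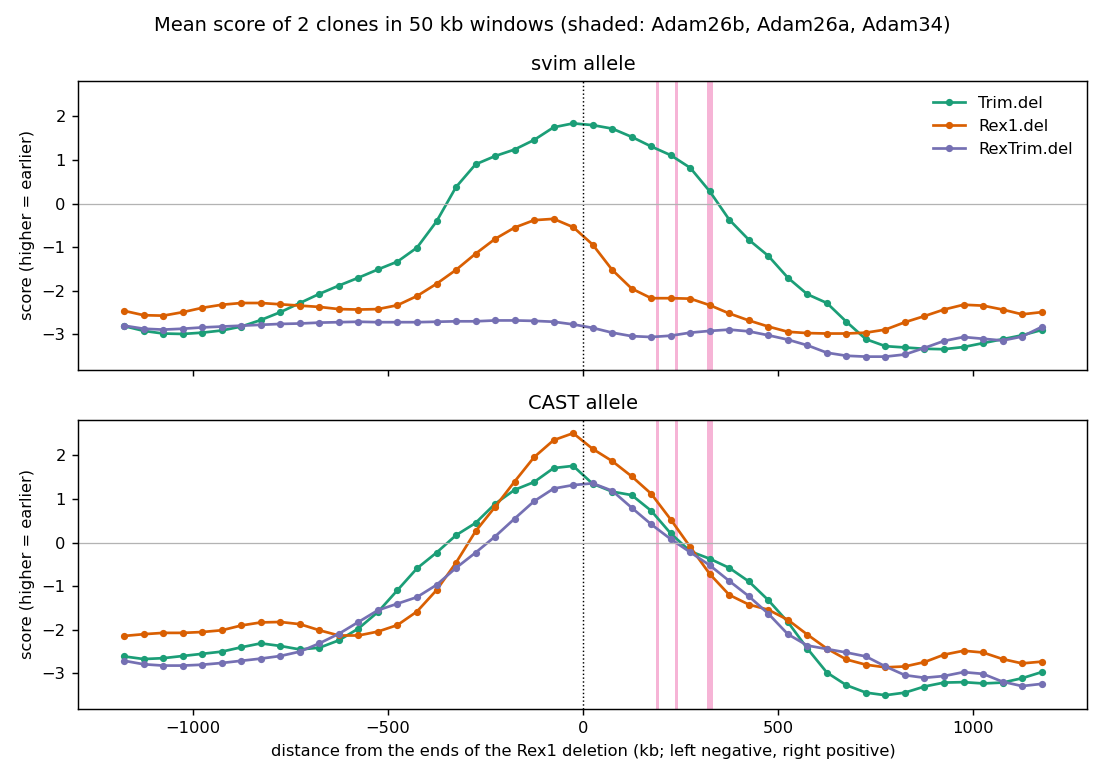
Mean score of 2 clones (vertical axis, higher is earlier) in 50 kb windows against distance from the ends of the Rex1 deletion in kb, for svim above and CAST below, with the deletion itself collapsed to 0 and the 3 ADAM genes shaded. On svim the Trim.del peak beside the interval is lower in Rex1.del and missing in RexTrim.del, while the 3 CAST curves stay close together over the ADAM genes.

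The size of the svim effect depended on the genotype beside the deletion more than at the ADAM genes. Rex1.del minus Trim.del on svim was -2.74 in the first window, -3.49 at 100 to 150 kb, -3.48 in the window of Adam26b, -3.28 in that of Adam26a and -2.60 in that of Adam34, so it was not largest at the deletion. RexTrim.del minus Trim.del was -4.65 in the first window and -4.38, -4.14 and -3.20 in the windows of the 3 members, smaller with distance. On svim every window was called lower up to 500 kb in both comparisons, where 4.24% and 0.753% of all windows were. Without E9 the Rex1.del run ended at 250 kb.

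The allele-specific effect, as the change of svim minus CAST, was smaller farther out on the side of the ADAM genes. For Rex1.del minus Trim.del it was -3.53 in the first 50 kb, -3.94 at 50 to 100 kb, -3.87 at Adam26b, -3.59 at Adam26a and -2.26 at Adam34, and then -1.53 at 350 to 400 kb and -0.26 at 750 to 800 kb. For RexTrim.del minus Trim.del it was -4.66 in the first window, -4.71 in the next, -4.06, -4.00 and -3.05 at the members, -2.22 at 350 to 400 kb and -0.91 at 750 to 800 kb. Windows were called lower without a break to 350 kb in Rex1.del and to 400 kb in RexTrim.del, against 0.397% and 0.634% of all windows called lower. All 3 members lie inside both runs, with Adam34 in the last called window of Rex1.del. In Rex1.del the windows and the genes were not called alike. The windows of Adam26a and Adam34 passed (adjusted p = 0.0022 and 0.0337, limma over windows). The genes themselves did not (adjusted p = 0.0825 and 0.1627, limma over genes). The first window with under 0.5 of the effect of the first window started at 350 kb in both comparisons. The runs were not stable to single clones: the Rex1.del run was 0 kb without E3, with -3.21 in the first window, and the RexTrim.del run was 250 kb without D3, with -4.65 there.

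**Figure D3:**
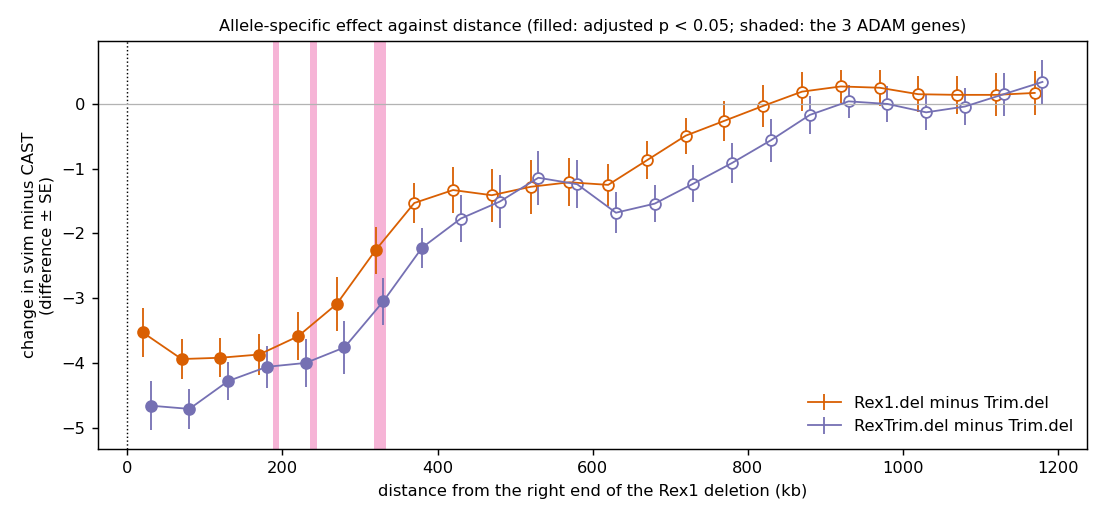
Change of svim minus CAST from Trim.del (vertical axis, difference ± SE in score units) in 50 kb windows against distance from the right end of the Rex1 deletion in kb, with filled points for windows past the adjusted threshold and the 3 ADAM genes shaded. Both curves lie between -4.71 and -3.53 up to the window of Adam26a, are nearer to 0 at Adam34 and are close to 0 beyond 850 kb.

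Per clone, svim minus CAST came nearer to 0 with distance over the 10 windows from 0 to 500 kb, by 0.58 and 0.57 per 100 kb in the Rex1.del clones D1 and E3 and by 0.77 and 0.58 in the RexTrim.del clones D3 and D8. The Trim.del clones D9 and E9 had slopes of -0.08 and -0.10. The mean slopes were 0.62 ± 0.10 (SD, n = 4) and -0.09 (n = 2), a difference of 0.71 with an exact two-sided permutation p of 0.1333, the smallest possible. The CAST score and the Trim.del svim score were lower over the same windows, as given above, and their part in the fall-off of the effect was not tested.

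**Figure D4:**
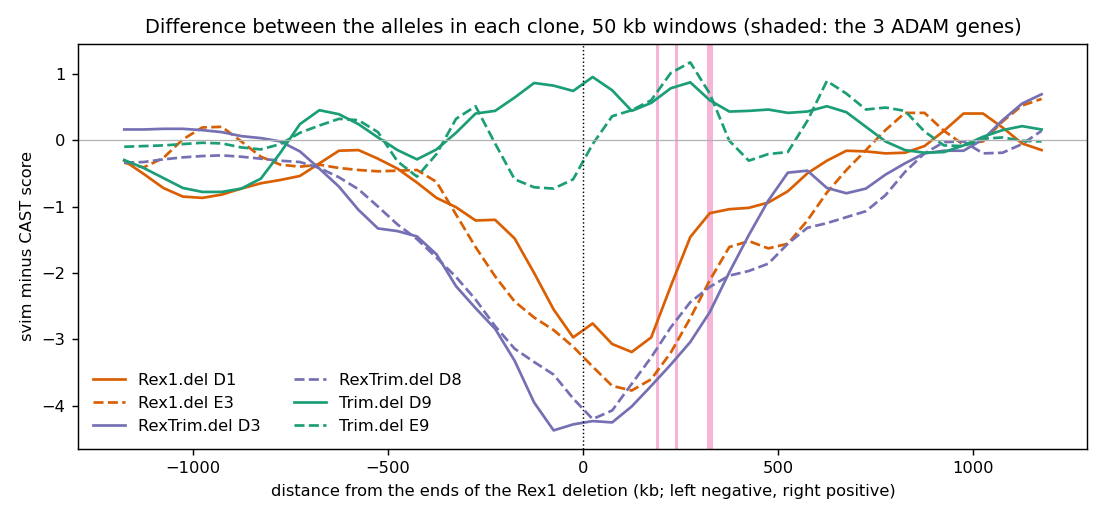
Difference between the alleles (vertical axis, svim minus CAST score) in each of 6 clones in 50 kb windows against distance from the ends of the Rex1 deletion in kb, with the deletion collapsed to 0 and the 3 ADAM genes shaded. The 4 clones without the Rex1 interval lie between -4.23 and -2.76 in the first window to the right and between -0.20 and 0.41 at 850 to 900 kb, and both Trim.del clones stay above 0 over the ADAM genes.

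To the left of the deletion, away from the ADAM genes, the change of svim minus CAST also came nearer to 0 with distance. For Rex1.del minus Trim.del it was -3.12 in the first window (adjusted p = 0.0106), -2.75 at 50 to 100 kb (adjusted p = 0.0573), -1.98 at 150 to 200 kb (adjusted p = 0.1370), -1.86 at 250 to 300 kb (adjusted p = 0.0229) and -0.57 at 350 to 400 kb. For RexTrim.del minus Trim.del it was -4.17, -3.99, -3.25, -2.92 and -1.57 in the same windows. The unbroken run of called windows ended at 50 kb in Rex1.del and at 400 kb in RexTrim.del, and the first of these ended between windows of similar size. The Rex1.del run was 0 kb without D1, E3, D3 or D8 and 300 kb without E9. The RexTrim.del run was 50 kb without D3, 100 kb without D8 and 50 kb after quantile normalization. On svim alone, windows to the left were called lower without a break to 400 kb in Rex1.del and 450 kb in RexTrim.del. To the right both svim runs ended at 500 kb. The first window to the left changed by -2.38 and -4.61 on svim. After quantile normalization these runs to the left were 100 kb and 400 kb. The Rex1.del one also changed when single clones were left out. The Trim interval, 120 kb to the left, is deleted in both RexTrim.del and Trim.del and intact in Rex1.del.

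The first position to the right of the Rex1 deletion with a score at or below 0 was taken as the end of early replication in each column. Column medians ran from -1.24 to 0.03, so 0 falls at a different rank in each column, and the distances depend on that. On svim that position was the one at the deletion edge, 3 kb away, in 4 of 4 clones without the interval, where the edge scored between -2.99 and -0.42. The -0.42 of D1 lay above the median of its column, -1.12. In Trim.del it was 303 kb away in D9 and 373 kb in E9, on either side of Adam34. On CAST it was 193 to 308 kb away in the 4 clones without the interval and 213 and 353 kb in Trim.del. In the 8 columns that hold values over the Rex1 interval, the end of the early stretch by this cut-off thus fell within or beside the ADAM cluster.

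The other ADAM genes of chromosome 8 were compared in the same way. Of 11 such genes only Adam34l, which shares positions with Adam34, was called on svim, at -2.55 in Rex1.del (SE 0.33, adjusted p = 0.0074) and -3.12 in RexTrim.del (SE 0.33, adjusted p = 0.0015). The other 10 lie farther away: Adam20, Adam24, Adam25 and Adam39, testis genes of the same kind, between 2.5 and 2.7 Mb to the left; Adam3, Adam5, Adam9, Adam18 and Adam32 between 18.4 and 18.7 Mb to the left; and Adam29 at 12.5 Mb to the right. None of the 10 was called on svim or CAST in any comparison of genotypes. Over the 11 genes the median svim difference was -0.02 in Rex1.del and -0.06 in RexTrim.del, against -3.19 and -4.04 over the members and 0.22 and -0.14 over all genes.

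The 10 distant ADAM genes spanned early and late scores. Adam9, which is made in many tissues, was the earliest of them, between 2.30 and 2.84 on svim. Adam20, Adam24, Adam25 and Adam39 scored between 1.39 and 2.17, and Adam32 between 1.73 and 2.23. Adam5 scored between 0.54 and 1.57, Adam3 between -0.39 and 1.29 and Adam18 between -0.38 and 1.03. Adam29 was late in every column, between -2.53 and -1.97 on svim and between -2.19 and -1.04 on CAST. It was also the only one of the 10 called between alleles, at -1.08 in RexTrim.del (SE 0.23, adjusted p = 0.0277), where its clones had -0.68 and -1.49. Over the 10 genes and 6 clones svim minus CAST ran from -1.49 to 0.44, so the members without the Rex1 interval, apart from the -1.08 of Adam34 in D1, lay outside that range.

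**Figure D5:**
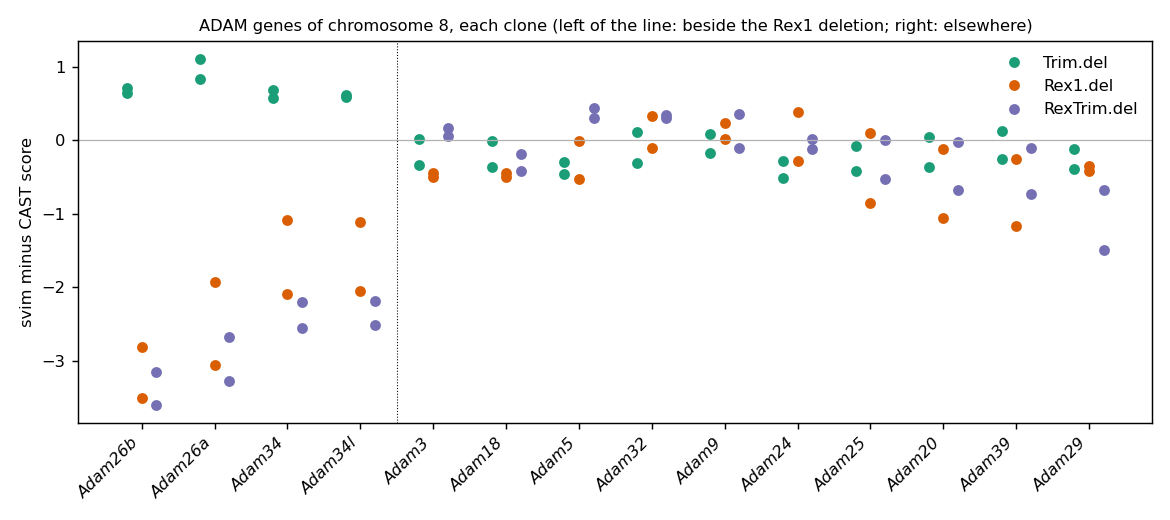
Difference between the alleles (vertical axis, svim minus CAST score) of the 14 ADAM genes in each clone, coloured by genotype, with the members and Adam34l left of the dotted line. The members and Adam34l split by genotype, from -3.61 to -1.08 without the Rex1 interval and from 0.58 to 1.11 with it, while the other 10 genes lie between -1.49 and 0.44 in all genotypes.

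On svim the nearest protein-coding neighbour to the right, Gm5347, was called and the next ones were not. These neighbours do not show where the effect ends, since the called stretch runs on past Gm5347 to Gm6303. The distances of the uncalled neighbours on either side were not examined. Gm5347 lies next to Adam34, 341 kb from the deletion and within the annotated span of Adam34l. It was called on svim at -2.33 in Rex1.del (SE 0.29, adjusted p = 0.0074) and -2.80 in RexTrim.del (SE 0.29, adjusted p = 0.0015). Beyond it lie Fat1, a large cadherin, and Mtnr1a, a melatonin receptor, which were not called on svim, with differences of 0.60 and 0.35 in Rex1.del and -0.06 and 0.13 in RexTrim.del. Fat1 and Mtnr1a were earlier on svim than on CAST in all 3 genotypes, for example by 1.85 and 2.43 in Trim.del (SE 0.19 and 0.21, adjusted p = 0.0033 and 0.0019). Against Trim.del their svim minus CAST changed by -0.93 and -1.28 in Rex1.del (adjusted p = 0.3272 and 0.2385, limma). In RexTrim.del it changed by -0.39 and -0.54, and none of these changes was called. On the left, Pcm1, Asah1 and Frg1 were not called in any comparison.

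Among genes more than 2 Mb from the deletion, those with scores most like the mean of the 3 members over 12 columns were Gm16553, Cd209a, Clec4g, Fcer2a and Trappc5, with Pearson correlations of 0.779, 0.773, 0.772, 0.726 and 0.706. All 5 lie together 39.6 Mb from the deletion. Their svim minus CAST differences were small, from -0.29 to -0.19 without the Rex1 interval and from 0.42 to 0.49 in Trim.del.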

How the data were processed

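The authors deposited 1 replication timing score per 5 kb position, made from the early and late fractions. The submitters' processing notes name the mm10 build with Bowtie2, SAMtools and bedtools. Their versions, the smoothing and the log base are unknown, and the IQR is equal in all columns. All 12 chromosome 8 columns were used; the chromosome 16 table was not used. What a position marks in its 5 kb step is not stated.

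Samples were grouped by the genotype in the labels. The members and gene lists were chosen with earlier results of these data known. Gene scores are means over positions in the annotated body (GRCm38.p6) or, where there is none, the nearest position. Positions inside either deletion were left out of all profiles. Windows of 50 kb under 50 percent filled were left out. The 3 genotypes were fitted together with limma 3.58.1 (lmFit, eBayes) in R 4.3.3. Two-sided p-values were adjusted by Benjamini-Hochberg over 2376 genes or 2522 windows with a threshold of 0.05; the procedure was tested on simulated data. Single values were compared with exact permutation tests (scipy 1.17.1). "Called" means past that threshold.

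Named genes are the members, the other ADAM genes, the genes at the deletions, 5 early and 3 late control genes (1 further early control is not reported here), the 3 nearest protein-coding genes on either side, and the 5 genes over 2 Mb away with the highest correlation. Alternatives were gene bodies widened by 25 kb, quantile normalization, rescaling over positions over 2 Mb away, robust eBayes, fits of only the 2 genotypes compared, windows of 25 and 100 kb, each clone left out (the 1 clone then left in a genotype is assumed to vary like the others), and, added after seeing the data, protein-coding genes only.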

Additional observations from a re-analysis of the deposited data

Results flagged for a closer look

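Some changes between genotypes differed between the alleles, by the limma test of svim minus CAST. For Rex1.del minus Trim.del this held for Adam26b, with -3.84 (adjusted p = 0.0163). For RexTrim.del minus Trim.del it held for Adam26b with -4.06 (adjusted p = 0.0113), Adam26a with -3.95 (adjusted p = 0.0247) and Adam34 with -3.01 (adjusted p = 0.0298). In each case svim minus CAST was below 0 in both clones without the Rex1 interval and above 0 in both Trim.del clones, a split not counted over all genes. None of these calls was stable to leaving out single clones, as given above. No group has 4 or more clones, so single outlying clones were not tested for.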

How the results depend on the processing

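The svim decrease of all 3 members in RexTrim.del against Trim.del kept its direction and its call in 36 of 36 alternative values, and that in Rex1.del in 33 of 36, the others being those without E9. These are not separate checks throughout: for a comparison of 2 genotypes, leaving out either clone of the third gives the fit of those 2 alone. The Rex1.del differences without E9 or another clone ran from -3.84 to -3.06 (Adam26b), -3.76 to -2.61 (Adam26a) and -3.09 to -2.09 (Adam34). For RexTrim.del minus Rex1.del, rescaling brought the svim differences to -1.64, -1.62 and -1.35 and the CAST difference of Adam26b to -1.39, all past the threshold. It also moved the median gene to -1.09 on svim and -1.17 on CAST.

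No other CAST difference of a member passed, and signs changed. For Adam34 on CAST, Rex1.del minus Trim.del was 0.20 after quantile normalization and 0.24 after rescaling, and RexTrim.del minus Rex1.del was -0.46 and -0.54. Leaving out single clones gave CAST ranges of -0.26 to 1.04, -0.36 to 0.92 and -0.82 to 0.08 for Adam26b, Adam26a and Adam34 in Rex1.del minus Trim.del. The ranges were -0.62 to 0.10, -0.52 to 0.36 and -0.62 to 0.28 in RexTrim.del minus Trim.del, and -1.30 to 0.00, -1.0 to 0.28 and -0.21 to 0.62 in RexTrim.del minus Rex1.del.

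For svim minus CAST in Rex1.del minus Trim.del, Adam26b (-3.84) missed the threshold when only the 2 genotypes were fitted, a fit on fewer clones. Adam26a passed with quantile normalization (-3.94), with robust eBayes (-3.46) and over protein-coding genes only (-3.46), and Adam34 with quantile normalization (-2.71) and robust eBayes (-2.22). Single clones left out gave -4.19 to -3.49, -4.03 to -2.90 and -2.72 to -1.71. In RexTrim.del minus Trim.del, Adam26a (-3.54) and Adam34 (-2.61) missed the threshold after quantile normalization, and single clones left out gave -4.29 to -3.83, -4.25 to -3.65 and -3.20 to -2.83. RexTrim.del minus Rex1.del turned to 0.70, 0.40 and 0.09 after quantile normalization, and for Adam26b and Adam26a ran from -0.57 to 0.13 and -1.05 to 0.07 without single clones. Within genotypes those ranges were -3.06 to -1.93 (Adam26a) and -2.09 to -1.08 (Adam34) in Rex1.del, and -3.61 to -3.15, -3.28 to -2.68 and -2.56 to -2.20 in RexTrim.del. In Trim.del, Adam26a (0.97) passed with robust eBayes. The cause of these changes was not tested.

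Without single clones the run of called windows to the right ended between 250 and 550 kb on svim in Rex1.del, and for svim minus CAST between 0 and 450 kb in Rex1.del and 250 and 450 kb in RexTrim.del. To the left, the runs for svim minus CAST ended between 0 and 300 kb in Rex1.del and between 50 and 400 kb in RexTrim.del. After quantile normalization the run to the right for svim minus CAST in Rex1.del was 0 kb, since its first window missed the threshold. Counts over all genes moved more. On svim, Rex1.del minus Trim.del called 97 genes, 60 among protein-coding genes only and 0 to 241 without single clones. RexTrim.del minus Trim.del called 14, 8 among protein-coding genes only and 32 without D8. RexTrim.del minus Rex1.del called 159, 4 when only the 2 genotypes were fitted and 0 to 439 without single clones. For svim minus CAST the 1 and 7 genes called against Trim.del became 6 and 1 after quantile normalization, 19 and 14 with robust eBayes, and 0 to 81 and 0 to 71 without single clones. On CAST up to 1179 genes passed, in RexTrim.del minus Rex1.del after rescaling. The slope difference ran from 0.65 to 0.73 over all alternatives.

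No paired analysis was possible because the chromosome 8 columns carry clone names and no replicate numbers shared between genotypes. That limit concerns the matching of clones across genotypes only. Within each clone the alleles were paired, as svim minus CAST. Read depth is unknown, so no counting error can be given. With 2 clones per genotype, the fits rest on few degrees of freedom, and the exact permutation tests cannot fall below 0.1333. The score's scaling is the authors' own. In Rex1.del minus Trim.del, rescaling moved the median gene from 0.22 to 0.66 on svim and from 0.29 to 0.88 on CAST. In RexTrim.del minus Rex1.del it moved the median gene from -0.37 to -1.09 on svim and from -0.43 to -1.17 on CAST.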
